A study of Mus musculus with 9 samples.

Results

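The 10 genes described here are encoded by the mitochondrial genome and make subunits of the respiratory chain and of ATP synthase. They are mt-Nd1, mt-Nd2, mt-Nd4, mt-Nd5 and mt-Nd6 of complex I, mt-Cytb of complex III, mt-Co1, mt-Co2 and mt-Co3 of complex IV, and mt-Atp6 of ATP synthase. They were taken by symbol from a table of 25468 genes, in which 13 mitochondrially encoded genes were found. RNA of mouse hearts was sequenced in bulk in 9 libraries. Hearts of WT mice after a myocardial infarction gave 3 libraries at day 1 and 3 at day 7, and sham-operated WT hearts gave 3 libraries, which served as the reference for both days. The labels give no collection day for the sham hearts, no region of the heart, and no strain, sex or age of the mice. Hearts of Hdc-/- mice, which the series also describes, were not analysed here.

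Mitochondrial DNA is a small circle that is copied into long RNAs running along each of its strands. These precursors are cut, mostly at the tRNAs lying between the genes, into mRNAs whose later levels depend on processing, polyadenylation and decay. Of the mRNAs, mt-Nd6 alone comes from the opposite strand. Each of complexes I, III, IV and ATP synthase joins these subunits with many others made from nuclear genes, whereas complex II is made from nuclear genes only. Heart muscle is dense in mitochondria, and mitochondrial mRNAs are a large part of its RNA.

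For several of these genes, pieces of mitochondrial DNA copied into the nuclear genome hold the same letters, so that a short read cannot be placed in one or the other. In the GENCODE M21 transcripts of GRCm38, every 50-base window of mt-Co2 (ENSMUSG00000064354) was also found in an annotated nuclear transcript. The same was true of 99.9% of the windows of mt-Co3 (ENSMUSG00000064358) and 99.5% of those of mt-Atp6 (ENSMUSG00000064357). The copies with the longest identical stretch lie on chromosome 1 and are annotated as unprocessed pseudogenes. Gm28661 matched mt-Co2 over 681 bases, Gm28437 matched mt-Co3 over 783 bases and Gm10925 matched mt-Atp6 over 678 bases, all with 0 mismatches. The first 60 bases of each pair are shown because they show what a read would have to tell apart. Capitals mark bases identical in the pair.
mt-Co2: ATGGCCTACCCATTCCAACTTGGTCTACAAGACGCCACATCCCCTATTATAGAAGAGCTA
Gm28661: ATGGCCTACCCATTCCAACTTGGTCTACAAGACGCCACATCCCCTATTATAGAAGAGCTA
mt-Atp6: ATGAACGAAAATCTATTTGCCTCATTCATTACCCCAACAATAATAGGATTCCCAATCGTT
Gm10925: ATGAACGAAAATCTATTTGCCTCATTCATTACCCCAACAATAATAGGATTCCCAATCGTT
mt-Co3: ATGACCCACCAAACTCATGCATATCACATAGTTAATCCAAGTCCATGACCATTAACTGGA
Gm28437: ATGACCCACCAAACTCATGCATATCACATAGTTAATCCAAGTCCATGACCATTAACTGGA

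Of mt-Nd4 (ENSMUSG00000064363), 62.2% of the windows were shared, and the copy Gm28439 matched it over 876 bases with 0 mismatches. Of mt-Co1 (ENSMUSG00000064351), 51.1% were shared. Its copy Gm29216 begins inside the gene, and the point where the identical run starts is printed here, with the run in capitals. The last base before it is a substitution, A1066T, counted from the first base of mt-Co1.
mt-Co1: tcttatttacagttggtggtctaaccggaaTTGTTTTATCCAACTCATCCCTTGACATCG
Gm29216: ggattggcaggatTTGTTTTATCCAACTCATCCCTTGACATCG
The share was 8.2% for mt-Nd2 (ENSMUSG00000064345) and 7.6% for mt-Nd5 (ENSMUSG00000064367). It was 0 for mt-Nd1 (ENSMUSG00000064341), mt-Nd6 (ENSMUSG00000064368) and mt-Cytb (ENSMUSG00000064370).

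Neighbouring mitochondrial genes also share bases with each other. The end of mt-Atp8, the other mitochondrial subunit of ATP synthase, overlaps the start of mt-Atp6 on the same strand by 43 bases, shown in capitals.
mt-Atp8: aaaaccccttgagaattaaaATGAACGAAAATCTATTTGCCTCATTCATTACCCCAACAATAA
mt-Atp6: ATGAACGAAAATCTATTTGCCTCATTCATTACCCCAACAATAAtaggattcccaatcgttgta
The ends of mt-Nd5 and mt-Nd6 overlap by 14 bases on opposite strands, so the capitals of one are the reverse complement of the other.
mt-Nd5: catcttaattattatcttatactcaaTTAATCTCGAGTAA
mt-Nd6: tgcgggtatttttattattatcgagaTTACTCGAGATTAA
The sources used here do not say whether the authors counted by strand, and without strand the reads of both genes in these bases cannot be told apart. The long RNAs of the mt-Nd5 strand also run across the rest of mt-Nd6. Without strand, their reads would be counted with mt-Nd6, and their part in its level was not tested.

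The deposited levels fell into separate tiers. Values are FPKM, sequenced fragments scaled by transcript length and library size, so that levels of genes of different length can be set side by side. In the 9 libraries, mt-Co2, mt-Co3 and mt-Atp6, which are copied almost whole, lay between 2.26 and 88.7 FPKM. The other 7 genes lay between 2824 and 42907 FPKM. mt-Nd6 averaged 73.3 times the level of mt-Atp6, its nearest neighbour in the order of levels. Shared sequence did not go with a low level in every gene: mt-Co1, with 51.1% of its windows shared, had the highest mean of the 10. Of the mitochondrial genes outside the 10, mt-Nd3, with 98.0% shared, lay between the tiers (538 to 1215 FPKM). mt-Nd4l, with 98.8% shared, reached into the upper one (1645 to 5828 FPKM). mt-Atp8, with 0% shared, averaged 132800 FPKM, against 66.65 FPKM for mt-Atp6, whose start it overlaps on the same strand. Matched by symbol, only 1 copy with shared windows, Gm4076 of mt-Nd5, was found in the deposited table. Copies listed there under another name would have been missed. The sources used here do not say how the authors assigned reads that match more than 1 place, and the part of shared sequence in these levels was not tested. The levels of mt-Co2, mt-Co3 and mt-Atp6 are therefore given as uncertain. Those of mt-Nd4 and mt-Co1, with 62.2% and 51.1% shared, are uncertain to an unknown degree.

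**Figure D1:**
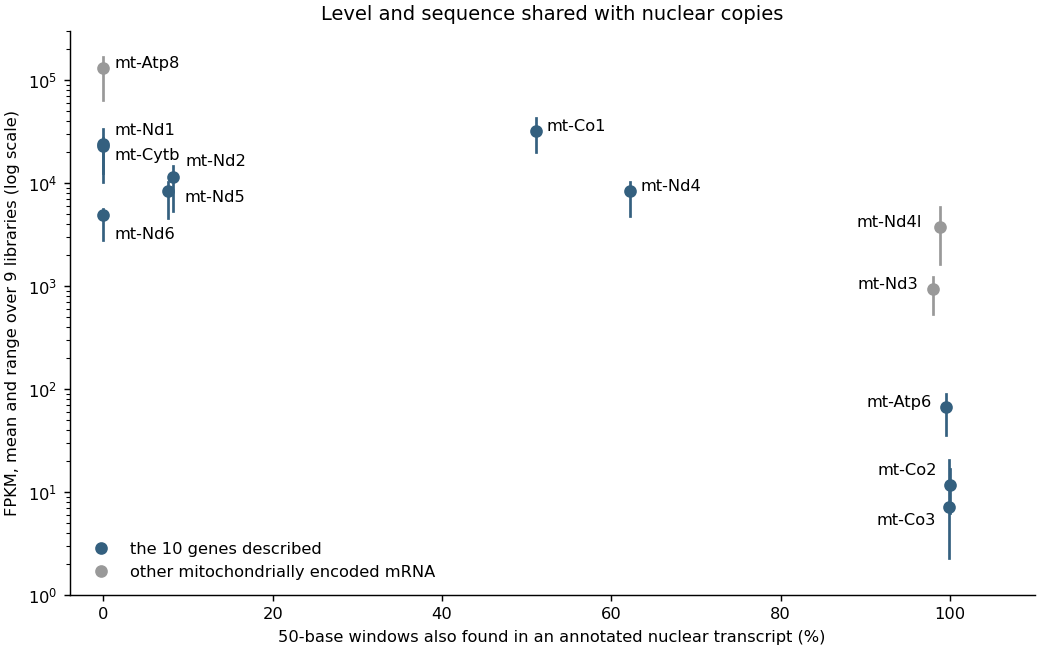
Mean FPKM over 9 libraries (log axis, lines from lowest to highest library) of the 13 mitochondrially encoded genes, against the percent of their 50-base windows found in an annotated nuclear transcript. mt-Co2, mt-Co3 and mt-Atp6 stand at the right with the lowest levels, while mt-Co1 and mt-Nd4, with 51.1% and 62.2% shared, are in the upper tier.

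Among the 7 genes of the upper tier the order of mean levels was mt-Co1, mt-Nd1, mt-Cytb, mt-Nd2, mt-Nd4, mt-Nd5 and mt-Nd6. mt-Co1 was above mt-Nd1 in 9 of 9 libraries and mt-Cytb was above mt-Nd2 in 9 of 9. mt-Nd2 was above mt-Nd4, and mt-Nd5 above mt-Nd6, in 9 of 9 as well. The places of mt-Nd1 and mt-Cytb were exchanged in some libraries, since mt-Nd1 was higher in 5 of 9, and mt-Nd4 was above mt-Nd5 in 5 of 9. In the lower tier mt-Atp6 was above mt-Co2 in 9 of 9 libraries, and mt-Co2 was above mt-Co3 in 7 of 9. The order in both tiers is that of the deposited values, and the handling of shared sequence could change it. mt-Nd4 and mt-Co1 share 62.2% and 51.1% of their windows, against 8.2% for mt-Nd2 and 7.6% for mt-Nd5.

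A few facts of the libraries bear on all that follows. Summed over its genes, a library held between 521643 and 792632 FPKM, with the 3 highest sums in sham, so FPKM and the share of a library's total are both reported. mt-Atp8, not one of the 10, alone took between 12.4% and 22.0% of that total. The defining cardiomyocyte markers were present in all libraries. Their summed FPKM was 15405 to 18941 at day 1, 12064 to 21237 at day 7 and 29532 to 32234 in sham, with 0 of the 7 markers at 0. The summed fibroblast markers were 1473 to 1949 FPKM at day 1, 3614 to 4998 at day 7 and 983 to 1232 in sham. Transcripts of airway and lung were at 1661 FPKM in day 1 replicate 2 and 201.9 FPKM in sham replicate 1, against at most 16.8 in the other libraries. Fat markers summed to 496.1 FPKM in sham replicate 1, against at most 103.7 in the others. Day 7 replicate 2 held 224.5 FPKM of skeletal muscle markers, against at most 7.86 elsewhere. It also held 39.1 FPKM of T cell markers, against at most 7.85 elsewhere. Atrial markers, 0 of 4 of them at 0 in any library, summed to 10948, 4319 and 281 FPKM in day 1 replicates 1, 2 and 3, to 5401, 771 and 1395 FPKM at day 7 and to 2676, 1446 and 229 FPKM in sham. Replicate 1 had the highest atrial sum of each group. The summed FPKM of the 10 genes was lowest in replicate 2 at day 1 (90719, against 96885 in replicate 1). It was lowest in replicate 1 at day 7 (60354) and in replicate 3 in sham (134575). Summed erythroid markers were 468.0 to 1847 FPKM at day 1, 754.9 to 1931 at day 7 and 205.0 to 594.6 in sham. Neutrophil markers summed to 111.8 to 302.8, 28.1 to 68.4 and 46.6 to 63.4 FPKM in the same order. For macrophage markers it was 470.5 to 768.4, 738.5 to 960.5 and 296.4 to 562.3 FPKM. The part of erythroid, neutrophil, macrophage, airway, fat, skeletal muscle, T cell and atrial transcripts in the results was not tested. In bulk tissue, fewer cells of a type and less RNA per cell cannot be told apart.

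At day 1, all 10 genes had a lower mean FPKM than in sham, and none passed the test. The most abundant of the complex I mRNAs, mt-Nd1, whose protein lines the quinone site, had 19038, 19292 and 26282 FPKM at day 1, against 32548, 33675 and 30071 FPKM in sham. The groups did not overlap, and day 1 replicate 3 was the nearest to sham. The log2 fold change on the log2(FPKM + 1) scale was -0.59 (SE 0.35, limma, adjusted p = 0.238). mt-Nd2, a subunit of the proton-pumping arm, had 10389, 9962 and 12779 FPKM at day 1 and 14369, 14790 and 13084 FPKM in sham. Here too the highest day 1 library stayed below the lowest sham library, with a log2 fold change of -0.36 (SE 0.31, limma adjusted p = 0.424). The pump subunit mt-Nd4 had 7369, 6402 and 9419.6 FPKM at day 1 and 10273, 10378 and 10361 FPKM in sham, where it varied least of the 10 for its level (10337 ± 56.2 FPKM, SD, n = 3). The other pump subunit, mt-Nd5, had 7815, 7156 and 9360.4 FPKM at day 1 and 9823, 9449 and 10254 FPKM in sham. Neither gene overlapped sham. mt-Nd6, the opposite-strand gene, stood at 5163 ± 461 FPKM at day 1 and 5202 ± 397 FPKM in sham (SD, n = 3 each). Its libraries had 5229, 4672 and 5588 FPKM at day 1 and 5660, 4977 and 4968 FPKM in sham, so the groups lay over each other.

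mt-Cytb, the haem-bearing subunit of complex III, had 20957, 18581 and 26889 FPKM at day 1, against 27656, 26089 and 27659 FPKM in sham. Day 1 replicate 3 reached into the sham range. mt-Co1, the catalytic core of complex IV, had 26033, 24609 and 34935 FPKM at day 1 and 39587, 42907 and 38071 FPKM in sham, without overlap (log2 fold change -0.51, SE 0.28, limma adjusted p = 0.208). mt-Co2, which takes electrons from cytochrome c, was listed at 10.6, 6.23 and 10.5 FPKM at day 1 and at 15.6, 14.6 and 11.5 FPKM in sham. mt-Co3, a core subunit without redox centres, had 2.27, 2.64 and 13.6 FPKM at day 1 and 11.3, 4.602 and 20.4 FPKM in sham, with spread inside each group as wide as the difference. mt-Atp6, part of the proton channel of ATP synthase, had 42.3, 36.0 and 66.5 FPKM at day 1 and 87.6, 69.4 and 73.6 FPKM in sham, without overlap. It had the lowest adjusted p of the 10 at day 1, with a log2 fold change of -0.70 (SE 0.26, limma adjusted p = 0.0727).

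**Figure D2:**
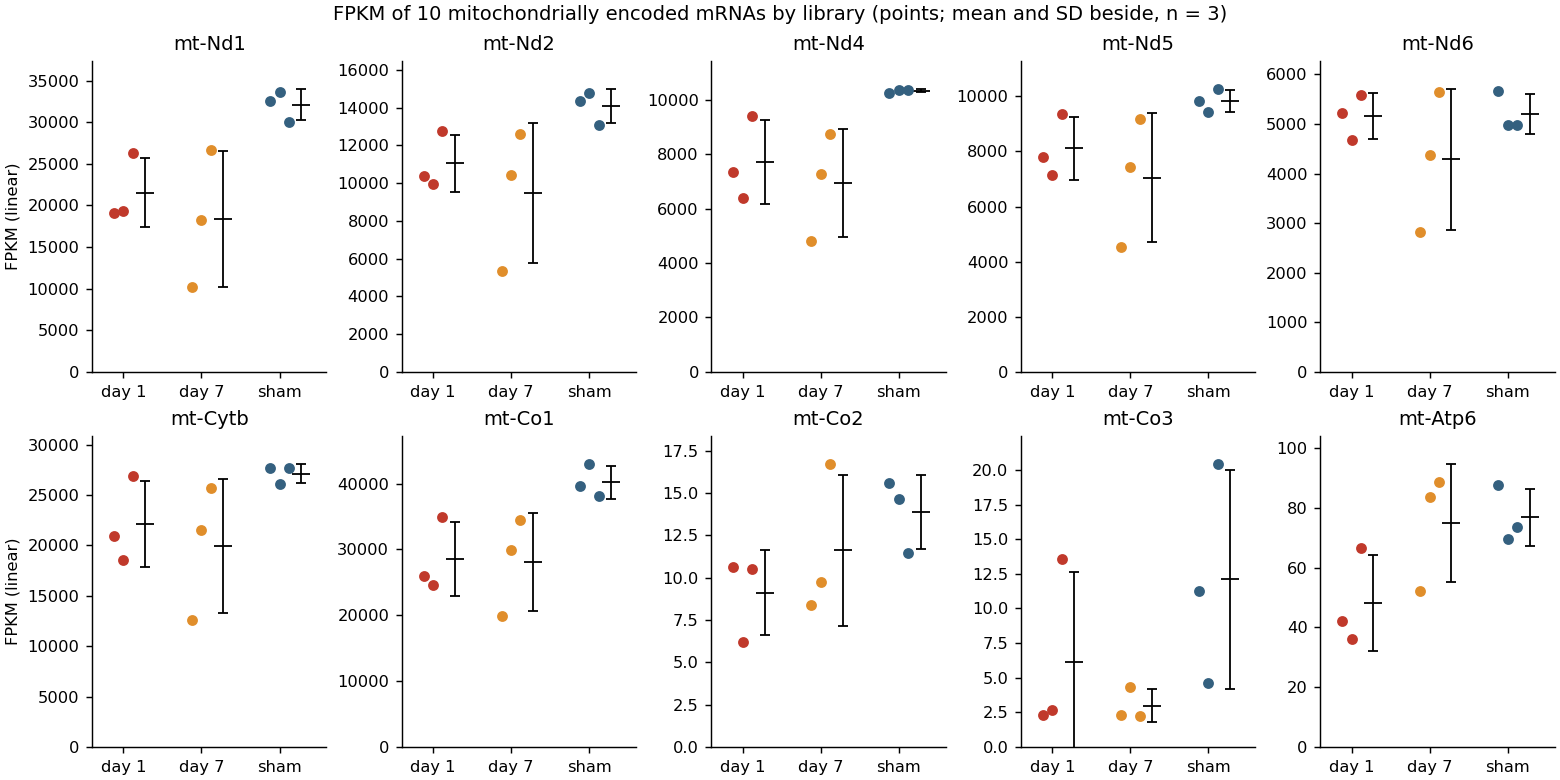
FPKM of the 10 genes in each library (points) by group, with the mean and SD (bars, n = 3), each panel on its own linear axis from 0. Day 7 libraries are the most spread in the 7 upper-tier genes: mt-Nd1 runs between 10200.2 and 26616 FPKM there, against 30071 to 33675 FPKM in sham. Where the mean less 1 SD is under 0 (mt-Co3 at day 1) the bar ends at the axis.

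At day 1 limma called 0 of the 10 genes on FPKM, while it called 28.2% of the 13514 genes tested. At an unadjusted p under 0.05 it was 1 of 10, mt-Atp6, against 41.2% of all genes. The groups did not overlap in 7 of the 10 genes, which were lower at day 1, against 25.1% of all genes lower without overlap. The median log2 fold change of the 10 was -0.47, that of all genes -0.0085, and the median SE of the 10 was 0.28. The direction of mt-Nd6 rests on scaling, since its value of -0.012 on FPKM was 0.007 after median-ratio scaling and 0.27 on the share of the library total.

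At day 7, the 3 libraries of the infarcted hearts lay far apart in these genes. mt-Nd1 had 10200.2, 18293 and 26616 FPKM at day 7, against 32548, 33675 and 30071 FPKM in sham. All 3 were below sham, replicate 1 by the most, and the log2 fold change was -0.91 (SE 0.35, limma adjusted p = 0.0750). mt-Nd2 had 5360.2, 10416 and 12623 FPKM at day 7 and 14369, 14790 and 13084 FPKM in sham. mt-Nd4 had 4829.6, 7296 and 8739.6 FPKM at day 7 and 10273, 10378 and 10361 FPKM in sham (log2 fold change -0.61, SE 0.26, limma adjusted p = 0.0941). mt-Nd5 had 4541, 7427 and 9162 FPKM at day 7 and 9823, 9449 and 10254 FPKM in sham. In each of these complex I genes replicate 3 lay closest to sham without reaching it. mt-Nd6, at 2824, 4379 and 5648 FPKM at day 7 and 5660, 4977 and 4968 FPKM in sham, did reach the sham range.

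mt-Cytb had 12606, 21509 and 25704 FPKM at day 7, against 27656, 26089 and 27659 FPKM in sham. mt-Co1 had 19929.8, 29945 and 34458 FPKM at day 7 and 39587, 42907 and 38071 FPKM in sham (log2 fold change -0.55, SE 0.28, limma adjusted p = 0.162). Neither overlapped sham. mt-Co2 had 8.38, 9.76 and 16.7 FPKM at day 7 and overlapped sham, with 15.6, 14.6 and 11.5 FPKM. mt-Co3, at 2.32, 4.35 and 2.26 FPKM at day 7 and 11.3, 4.602 and 20.4 FPKM in sham, had the largest fitted difference of the 10 (-1.56, SE 0.63, limma adjusted p = 0.0871). mt-Atp6 had 52.3, 83.4 and 88.7 FPKM at day 7 and 87.6, 69.4 and 73.6 FPKM in sham, with groups that overlapped.

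In the comparison of day 7 with sham limma called 0 of the 10 genes on FPKM, against 33.1% of all genes tested. At an unadjusted p under 0.05 it was 3 of 10, mt-Nd1, mt-Co3 and mt-Nd4, against 45.7% of all genes. As at day 1, 7 of the 10 genes were lower without overlap, against 28.8% of all genes, and the fitted difference was negative in 10 of 10. Both comparisons use the same sham libraries. The median log2 fold change of the 10 was -0.55 and that of all genes -0.016. The calls at day 7 depended on single settings: mt-Nd1 passed with an adjusted p of 0.0448 when genes with a mean under 5 FPKM were left out and of 0.0490 without the variance trend, and mt-Co3 passed with 0.0489 when only the libraries of day 7 and sham were fitted. Without day 7 replicate 3, mt-Nd1 and mt-Nd4 passed, and without day 1 replicate 3, mt-Co3 passed. At day 1 mt-Atp6 and mt-Co3 passed without day 1 replicate 3, and mt-Atp6 passed without day 7 replicate 1, a library that entered that fit only through the shared spread.

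mt-Nd4l, a small complex I subunit that is not one of the 10, was the 1 mitochondrially encoded gene of 13 that limma called, and only in the comparison of day 7 with sham. It had 1645, 3064 and 3414 FPKM at day 7 and 4379.5, 5828 and 5013 FPKM in sham, and fell by 0.96 on the log2 scale (SE 0.28, limma adjusted p = 0.0304). The call was kept in 11 of 17 alternatives on FPKM, with limma adjusted p-values between 0.0219 and 0.132, and it was lost without any 1 of the 3 sham replicates. Of its windows, 98.8% were shared with the nuclear copy Gm10222, and it overlaps mt-Nd4 by 7 bases.

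As a share of the library total, the 10 genes together took 15.6%, 15.2% and 17.2% at day 1, 11.6%, 15.4% and 18.1% at day 7, and 17.7%, 18.0% and 17.5% in sham. The day 1 libraries all lay below sham, while the day 7 libraries lay on both sides of it. The mean difference from sham was -1.71 percentage points at day 1 and -2.68 percentage points at day 7. Without day 7 replicate 1 the day 7 difference was -0.954 percentage points. Of the total without the mitochondrially encoded genes, the 10 genes came to 24.3%, 23.1% and 28.5% at day 1, 15.3%, 24.1% and 29.2% at day 7, and 29.2%, 29.4% and 28.4% in sham. On that denominator day 1 replicate 3 and day 7 replicate 3 lay within the sham values.

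Tested as shares, in values rescaled to a common library total, 0 of the 10 genes were called in either comparison with sham. Limma called 22.5% of all genes at day 1 and 32.1% at day 7. At an unadjusted p under 0.05 it was 1 of 10 at day 1, mt-Atp6, against 39.4% of all genes, and 1 of 10 at day 7, mt-Nd1, against 46.5%. This scaling moved the median of all genes to 0.23 at day 1 and 0.30 at day 7 on the log2 scale, and the median of the 10 genes was -0.19 at day 1 and -0.19 at day 7. mt-Nd1 took 3.07%, 3.23% and 3.601% of the total at day 1, 1.96%, 2.84% and 3.92% at day 7, and 4.11%, 4.25% and 3.91% in sham. Its day 1 libraries did not overlap sham, and its day 7 replicate 3 stood just inside the sham range. The log2 fold change of its share was -0.31 (SE 0.22, limma adjusted p = 0.310) at day 1 and -0.55 (SE 0.22, limma adjusted p = 0.0780) at day 7. mt-Co1 took 4.20%, 4.12% and 4.79% at day 1 and 4.99%, 5.42% and 4.95% in sham, without overlap. mt-Nd6 was the 1 gene of the 10 with a higher share at day 1, with 0.845%, 0.782% and 0.766% of the total against 0.714%, 0.629% and 0.646% in sham. Its groups did not overlap, and the log2 fold change of 0.27 (SE 0.16, limma adjusted p = 0.227) was close to the shift of all genes.

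Without overlap on the share scale, 3 of the 10 genes were lower at day 1 (mt-Nd1, mt-Co1 and mt-Nd4), against 10.2% of all genes, and 1 was higher, against 40.6% of all genes. At day 7 it was 1 lower, mt-Nd4, against 8.44% of all genes. mt-Nd4 took 0.926%, 1.13% and 1.29% of the total at day 7 and 1.30%, 1.31% and 1.35% in sham. mt-Co2, mt-Nd6 and mt-Atp6 had log2 fold changes of their share above 0 at day 7, where their FPKM values were below 0.

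**Figure D3:**
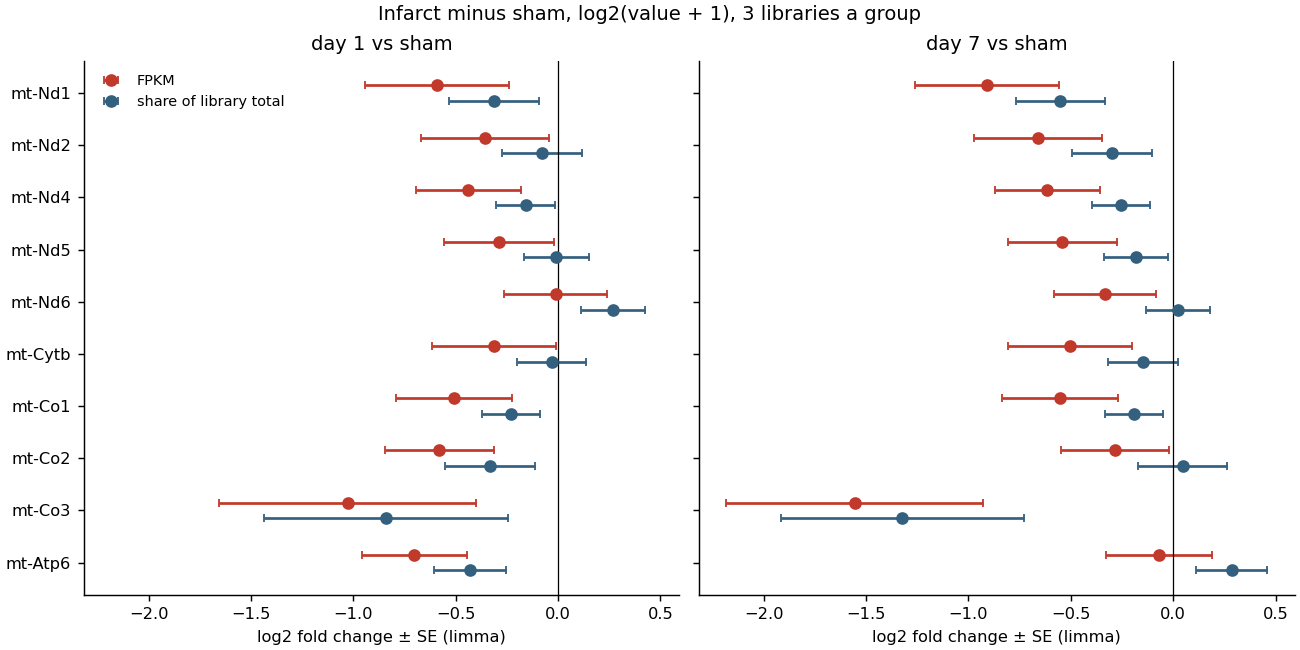
Log2 fold changes against sham from limma with their SE, on FPKM (red) and on the share of the library total (blue), on log2(value + 1). On FPKM every point is below 0, with mt-Nd6 at -0.012 at day 1 and mt-Atp6 at -0.069 at day 7, and on shares the points move up.

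Between the infarct groups, day 7 and day 1 overlapped in all 10 genes on FPKM, while 27.2% of all genes did not overlap. Limma called 0 of the 10 genes, against 4.85% of all genes, and 1 of 10 had an unadjusted p under 0.05, against 23.2% of all genes. That gene was mt-Atp6, with 52.3, 83.4 and 88.7 FPKM at day 7 and 42.3, 36.0 and 66.5 FPKM at day 1 (log2 fold change 0.63, SE 0.26, limma adjusted p = 0.184). On the share scale it was again 0 of 10 called, against 1.37% of all genes, and 1 of 10 at an unadjusted p under 0.05, against 17% of all genes. mt-Atp6 was the 1 gene higher without overlap there, against 13.8% of all genes, with a log2 fold change of 0.72 (SE 0.17, limma adjusted p = 0.0789). It passed without day 1 replicate 3, with an adjusted p of 0.0431. The remaining fold changes on FPKM lay between -0.53 and 0.29, and without day 7 replicate 1 those of mt-Nd1, mt-Nd2, mt-Nd4, mt-Nd5, mt-Cytb and mt-Co1 were above 0.

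The balance among the genes within a library does not depend on how the library was scaled. Of the summed FPKM of the 10 genes, mt-Nd6 made up 5.397%, 5.15% and 4.46% at day 1, 4.68%, 4.41% and 4.59% at day 7, and 4.04%, 3.50% and 3.69% in sham. Both infarct groups were above sham without overlap. mt-Nd1 made up 19.7%, 21.3% and 20.97% at day 1, 16.9%, 18.4% and 21.6% at day 7, and 23.2%, 23.7% and 22.3% in sham, and both infarct groups were below sham without overlap. On this scale mt-Nd1 and mt-Co1 were lower at day 1, against 5.57% of all genes, and mt-Nd6 was higher, against 47.8% of all genes. At day 7 mt-Nd1 was lower, against 2.21% of all genes, and mt-Nd6, mt-Cytb and mt-Atp6 were higher, against 49.3% of all genes. Between the infarct groups mt-Co1 and mt-Atp6 were higher at day 7, against 8.51% of all genes. These percentages are no like background, since the 10 genes are parts of the sum and the other genes are not. That sum was at most 125343 FPKM in the infarct libraries and at least 134575 FPKM in sham. Dividing by it therefore moves genes outside the 10 up after infarction. Since the parts of a whole must sum to the same total, ratios of 2 genes were also taken.

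Over mt-Nd5, the gene that its end overlaps, mt-Nd6 stood at 0.669, 0.653 and 0.597 at day 1, 0.622, 0.590 and 0.616 at day 7, and 0.576, 0.527 and 0.485 in sham. Every infarct library was above every sham library. If counting ignored strand, the mt-Nd6 values may hold reads of the opposite strand. mt-Nd1 over mt-Nd5 was 2.44, 2.70 and 2.81 at day 1, 2.25, 2.46 and 2.90 at day 7, and 3.31, 3.56 and 2.93 in sham, and mt-Nd1 over its neighbour mt-Nd2 was 1.83, 1.94 and 2.06 at day 1, 1.90, 1.76 and 2.11 at day 7, and 2.27, 2.28 and 2.30 in sham. Every infarct library was below every sham library in both. mt-Cytb over mt-Nd5 was 2.72 ± 0.141 at day 1, 2.83 ± 0.0627 at day 7 and 2.76 ± 0.0590 in sham (SD, n = 3 each), with groups that overlapped. mt-Atp6 as a percent of mt-Nd5 was 0.541, 0.503 and 0.711 at day 1, 1.15, 1.12 and 0.968 at day 7, and 0.892, 0.734 and 0.718 in sham. It was thus below sham in every day 1 library and above sham in every day 7 library, with day 1 replicate 3 close to the lowest sham library. These pairs were chosen after their values were seen, among 13 ratios computed. With 3 libraries a group, the smallest p of an exact permutation test is 0.1, so none is given.

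**Figure D4:**
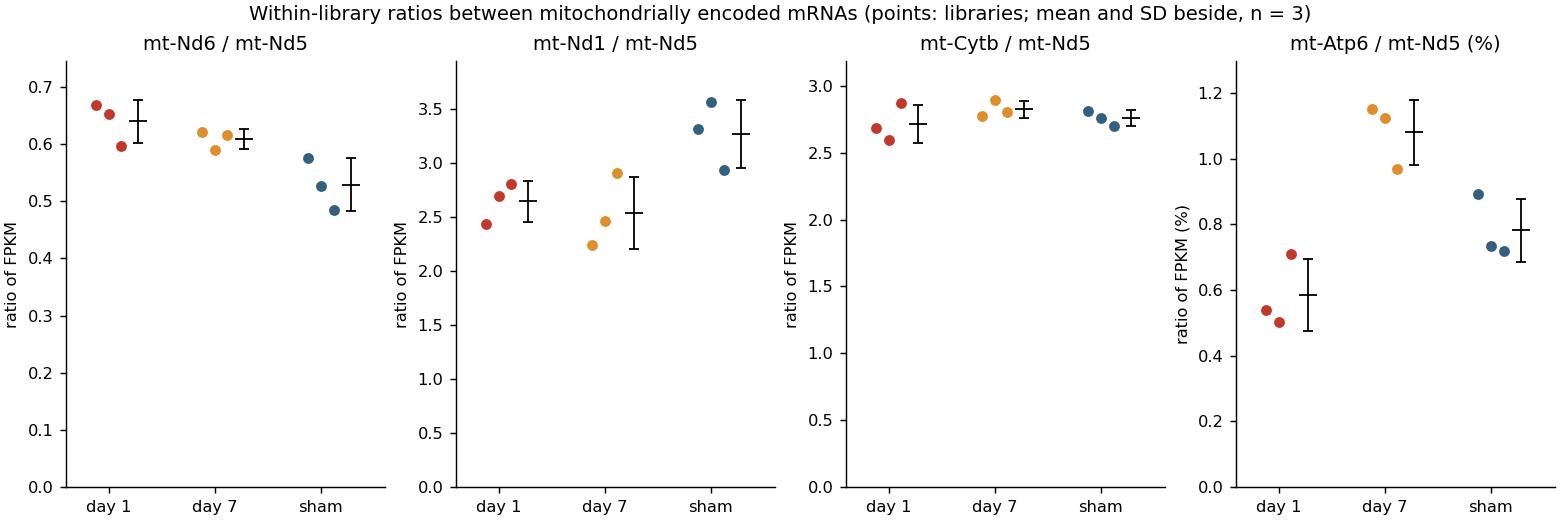
Ratios of 2 mitochondrially encoded genes within each library (points) with the group mean and SD (bars, n = 3), on linear axes from 0. The mt-Nd6 to mt-Nd5 ratio is above sham and the mt-Nd1 to mt-Nd5 ratio below it in both infarct groups, the mt-Cytb to mt-Nd5 ratio overlaps, and mt-Atp6 to mt-Nd5 is lower than in sham at day 1 and higher at day 7.

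Across the 9 libraries the upper-tier genes followed each other closely. Pearson's r of log2(FPKM + 1) was between 0.917 and 0.991 among mt-Nd1, mt-Nd2, mt-Nd4, mt-Nd5, mt-Cytb and mt-Co1. It was 0.737 between mt-Nd6 and mt-Co1, and 0.249 between mt-Co2 and mt-Co3. These are descriptions over libraries that share their scaling. By the same measure, the nuclear protein-coding genes most like the mean of the 10, among 12431 ranked, were Ei24 (r = 0.987), Ndufa9 (0.981), Cox7a1 (0.970), Tufm (0.970) and Ndufs6 (0.966). Ndufa9 and Ndufs6 are accessory subunits of complex I, Cox7a1 is the muscle isoform of a complex IV subunit, and Tufm is the mitochondrial translation elongation factor.

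The nuclear genes that make the rest of the complexes were called where the 10 were not. Of the 7 core subunits of complex I, 4 fell at day 1 and 4 at day 7. Ndufv1, which binds NADH, averaged 137.4 ± 11.7 FPKM at day 1, 127.6 ± 27.7 FPKM at day 7 and 209.9 ± 2.07 FPKM in sham (SD, n = 3 each), with limma adjusted p-values of 0.0214 at day 1 and 0.0109 at day 7. Of the 9 complex III subunits, 4 fell at day 1 and 3 at day 7, Uqcrh, Uqcrb and Uqcrc2 at both times. Of the 11 complex IV subunits, 8 fell at day 1 and 9 at day 7. The muscle isoform Cox8b averaged 1083 ± 251 FPKM at day 1, 1057 ± 241 FPKM at day 7 and 2075 ± 152 FPKM in sham (SD, n = 3 each; limma adjusted p = 0.0152 at day 1 and 0.0124 at day 7). Of the 15 ATP synthase subunits, 9 fell at day 1 and 9 at day 7, Atp5c1 of the rotating stalk by 0.73 and 0.84 on the log2 scale. None rose on FPKM, where 13.4% of all genes rose at day 1 and 15.7% at day 7. Of the 4 subunits of complex II, 2 fell at day 1 and 3 at day 7, and on shares 1 at each time. Lower calls made up 14.7% of all genes at day 1 and 17.3% at day 7. On shares the counts were smaller: at day 1, 3 of 7, 3 of 9, 6 of 11 and 4 of 15 for complexes I, III, IV and ATP synthase, and at day 7, 2 of 7, 1 of 9, 4 of 11 and 3 of 15, against 4.45% and 3.9% of all genes called lower. Atp5e of ATP synthase rose on shares at day 7, as did 28.2% of all genes. That these genes passed and the 10 did not is no test of a difference between them. Of the 42 nuclear subunits of complexes I, III, IV and ATP synthase, 25 fell at day 1 and 25 at day 7, and all 42 had a log2 fold change below 0 at both times. These counts changed with the libraries that entered the fit. At day 1, 6 and 3 of the 42 passed without day 1 replicate 1 or 2 and 5, 3 and 6 without sham replicate 1, 2 or 3, while 42 passed without day 7 replicate 1. Lower calls among all 13514 genes changed too, from 1993 with all 9 libraries. They were 1237 and 790, then 1218, 816 and 1215, and 2299 in the same settings. At day 7, 12 and 16 passed without day 7 replicate 1 or 2, and 6, 8 and 10 without sham replicate 1, 2 or 3. Lower calls among all genes went from 2341 to 1307 and 1608, and to 1517, 1042 and 1500, in those settings. Without both sham replicate 1 and day 1 replicate 2, the libraries with most airway transcripts, 0 passed at day 1 and 1 at day 7. Among all genes, 146 were then called lower at day 1 and 1047 at day 7. All 42 still had a log2 fold change below 0 at day 1, and 41 at day 7.

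Set over these nuclear genes in the same library, the mitochondrial mRNAs stood higher than in sham at day 1 and overlapped sham at day 7. The summed FPKM of the 10 over that of 42 nuclear subunits of complexes I, III, IV and ATP synthase was 3.73, 3.81 and 3.97 at day 1, 2.85, 3.28 and 3.91 at day 7, and 3.23, 3.51 and 3.38 in sham. It was above sham in every day 1 library, and on both sides of sham at day 7. For complex I alone, the 5 mitochondrial genes over the 7 nuclear core genes gave 44.3, 44.5 and 47.5 at day 1, 30.6, 36.6 and 44.5 at day 7, and 40.1, 39.6 and 40.7 in sham, again higher at day 1 without overlap. mt-Co1 over the nuclear complex IV genes overlapped sham, at 2.45 ± 0.0853 at day 1, 2.48 ± 0.176 at day 7 and 2.20 ± 0.202 in sham (SD, n = 3 each).

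Over the summed FPKM of 7 cardiomyocyte markers, the 10 genes came to 5.48, 5.89 and 6.62 at day 1, 5.003, 5.45 and 5.79 at day 7, and 4.67, 4.42 and 4.56 in sham, with every infarct library above every sham library. Of those markers, which are contractile and calcium-cycling genes, 4 of 7 fell at day 1 and 5 of 7 at day 7, beside 14.7% and 17.3% of all genes. Ryr2 did not fall, with a log2 fold change of 0.013 at day 1. It had 162.8, 125.5 and 133.3 FPKM at day 1 and 127.2, 144.5 and 144.2 FPKM in sham. The sum is carried by markers of far higher FPKM, such as Myl2, so the ratio depends on the markers chosen. Over 6 genes that mark mitochondrial content, such as the outer-membrane channel Vdac2, the 10 genes came to 122 ± 11.9 at day 1, 118 ± 19.5 at day 7 and 122 ± 1.52 in sham (SD, n = 3 each), with groups that overlapped. The part of the makeup of cell types in these ratios was not tested.

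**Figure D5:**
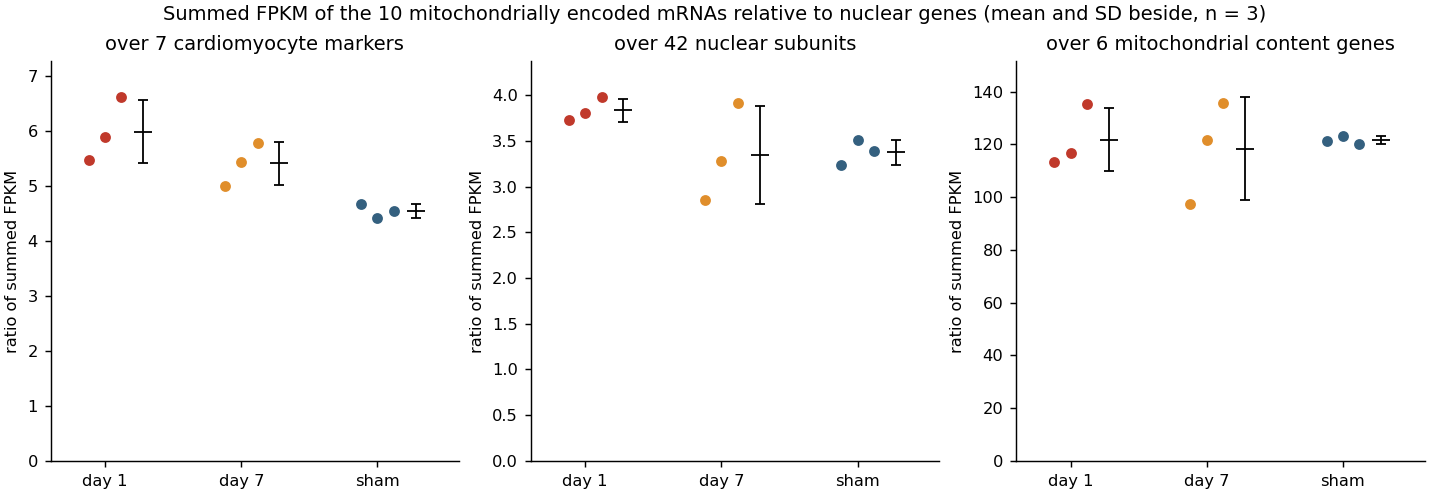
Summed FPKM of the 10 genes over the summed FPKM of 7 cardiomyocyte markers, 42 nuclear subunits and 6 mitochondrial content genes in each library (points), with the group mean and SD (bars, n = 3), on linear axes from 0. At day 1 the ratios to nuclear subunits and to cardiomyocyte markers are above sham; of the 3 ratios at day 7, the one to cardiomyocyte markers has no overlap with sham (5.003 to 5.79 against 4.42 to 4.67).

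Of 8 tested nuclear genes of mitochondrial transcription, 4 fell at day 1 and 4 at day 7, beside 14.7% and 17.3% of all genes. They were the same 4: Tfam, which packs the DNA and opens its promoters, Tfb2m, which melts them, the elongation factor Tefm, and Mterf2 of the terminator family. Tfam averaged 19.7 ± 1.73 FPKM at day 1, 16.9 ± 2.68 FPKM at day 7 and 28.8 ± 1.02 FPKM in sham (SD, n = 3 each), with log2 fold changes of -0.53 (SE 0.12, limma adjusted p = 0.0141) at day 1 and -0.74 (SE 0.12, limma adjusted p = 0.00483) at day 7. Polrmt, the polymerase itself, had -0.39 (limma adjusted p = 0.0556) at day 1 and -0.36 (0.0650) at day 7. On shares 2 of 8 fell at day 1, Tefm and Mterf2, and 2 of 8 at day 7, Tfam and Mterf2, beside 4.45% and 3.9% of all genes. Both counts were 0 without sham replicate 2 or 3. Of all 13514 genes, 203 and 291 then fell on shares at day 1, and 183 and 284 at day 7. Of 8 genes of mitochondrial DNA replication, Ssbp1, which coats single strands, fell at day 1, where Primpol, a primase-polymerase, rose. That is 1 of 8 each way, near the 14.7% of all genes that fell and the 13.4% that rose. At day 7, 3 of the 8 fell, beside 17.3% of all genes: Ssbp1, the nuclease Mgme1 and the helicase gene listed as Peo1. On shares Primpol rose at both times, as did 18.1% of all genes at day 1 and 28.2% at day 7. Mgme1 fell on shares at day 7, as did 3.9% of all genes.

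Of 16 genes that process and stabilise mitochondrial RNA, 8 fell at day 1 and 9 at day 7, beside 14.7% and 17.3% of all genes. Slirp, which with Lrpprc holds mitochondrial mRNAs stable, averaged 57.0 ± 7.89 FPKM at day 1, 44.8 ± 6.13 FPKM at day 7 and 96.2 ± 12.9 FPKM in sham (SD, n = 3 each). Its log2 fold change was -0.74 (SE 0.15, limma adjusted p = 0.00941) at day 1 and -1.08 (SE 0.15, limma adjusted p = 0.00302) at day 7. Lrpprc fell by 0.68 at day 1 (SE 0.19, limma adjusted p = 0.0292) and by 0.70 at day 7 (SE 0.19, limma adjusted p = 0.0242) on the log2 scale. Grsf1, an RNA granule protein known to bind the mt-Nd6 transcript, fell by 0.60 at day 1 (SE 0.14, limma adjusted p = 0.0165) and by 0.52 at day 7 (SE 0.14, limma adjusted p = 0.0260) on the same scale. Fastk, known to act on the mt-Nd6 mRNA, also fell at both times. Pnpt1, the RNA-degrading phosphorylase, was the 1 gene of the mitochondrial lists called between the infarct groups on FPKM, beside 4.85% of all genes. It was at 9.996 ± 1.07 FPKM at day 7 and 14.7 ± 1.42 FPKM at day 1 (SD, n = 3 each, limma adjusted p = 0.0348). Its share was not called (limma adjusted p = 0.122). The FPKM call was lost without a filter and with only 2 groups fitted. It was also lost without sham replicate 1 or 3, any 1 day 1 replicate, or day 7 replicate 1 or 2. On shares 5 of 16 fell at day 1 and 3 of 16 at day 7, beside 4.45% and 3.9% of all genes. The day 1 count was 0 without day 1 replicate 1, day 1 replicate 2 or sham replicate 1. Of all 13514 genes, 307, 243 and 301 then fell on shares.

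Of 12 genes that translate the mitochondrial mRNAs or insert their products, 6 fell at day 1 and 7 at day 7, and on shares 1 and 0. Among all genes, 14.7% fell at day 1 and 17.3% at day 7, and on shares 4.45% and 3.9%. The same percentages apply to the list counts that follow. Taco1, the translational activator of mt-Co1, was at 15.2 ± 1.75 FPKM at day 1 and 24.9 ± 2.19 FPKM in sham (SD, n = 3 each; limma adjusted p = 0.0118). Of 6 regulators of mitochondrial biogenesis, 4 fell at day 1 and 3 at day 7. Ppargc1a, the coactivator PGC-1alpha, averaged 25.96 ± 3.72 FPKM at day 1, 16.8 ± 7.74 FPKM at day 7 and 56.2 ± 10.1 FPKM in sham (SD, n = 3 each). Its log2 fold change was -1.08 (SE 0.33, limma adjusted p = 0.0387) at day 1 and -1.79 (SE 0.33, limma adjusted p = 0.00729) at day 7. On shares 2 of 6 fell at day 1, and at day 7 Ppargc1a fell and Nrf1, a transcription factor for respiratory genes, rose. That is 1 of 6 higher, beside 28.2% of all genes. Of the 6 mitochondrial content genes, 3 fell at day 1 and 5 at day 7, and on shares 1 at each time, with Hspd1, a matrix chaperonin, at 91.2 ± 23.9 FPKM at day 7 and 173.4 ± 8.04 FPKM in sham (SD, n = 3 each; limma adjusted p = 0.00974). Of the 50 tested genes of transcription, replication, RNA processing, translation and biogenesis together, 23 fell at day 1 and 26 at day 7. At day 1 it was 11 without day 1 replicate 2, and 13 and 15 without sham replicate 2 or 3, where 790, 816 and 1215 of all 13514 genes fell. At day 7 it was 16 without day 7 replicate 1 and 13 without sham replicate 2, where 1307 and 1042 of all genes fell. On shares 10 of the 50 fell at day 1 and 7 at day 7. That day 1 count was 1 without day 1 replicate 1 or 2, 2, 1 and 2 without sham replicate 1, 2 or 3, and 6 without day 1 replicate 3. All genes that fell on shares at day 1 went from 601 to between 203 and 484 in these settings. The day 7 count was 3 to 4 without any 1 sham replicate or day 7 replicate 1. All genes that fell on shares at day 7 went from 527 to between 183 and 402 there. On FPKM, without both sham replicate 1 and day 1 replicate 2, it was 1 at day 1 and 15 at day 7, with log2 fold changes below 0 in 44 and 45 of them. All genes called lower were then 146 at day 1 and 1047 at day 7, against 1993 and 2341 with all 9 libraries.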

How the data were processed

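Per the labels' protocols, TRIzol was used to extract total RNA and the VAHTS Universal V6 kit to make the libraries. HISAT2 2.1.0, HTSeq 0.11.2, FastQC 0.11.9 and the build GRCm39 are named in the submitters' processing notes. The deposited values are FPKM made by the authors for 55361 transcript entries. Of the positive values 11.8% were under 1e-06, so reads appear to have been counted in fractions, and the depth of the libraries is unknown. No coordinates are given, since the annotation used here (GENCODE M21, GRCm38) is of another build. It served for names, transcript sequences, strand and neighbours.

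FPKM were summed over the transcripts of a gene. The 13514 genes with a mean of 1 FPKM or more over the 9 libraries, all 10 members among them, were tested as log2(FPKM + 1) and as log2(share + 1), the share being the value after each library was rescaled to a total of 1000000. The test was limma 3.58.1 in R 4.3.3 with a variance trend and 1 mean per group, two-sided, with the Benjamini-Hochberg adjustment over all genes tested. Calls were made at adjusted p-values under 0.05, and "fell" and "rose" refer to such calls. The scale understates changes of low genes. The fit was tested on simulated data. Of 58 nuclear genes covered by the naming rule, 27 have an exon that overlaps another gene's exon, 5 of them on the same strand. Without strand, reads of overlapping genes cannot be told apart. Since no label ties the libraries to separate animals, p-values measure the spread between libraries, which may be technical.

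The members and the gene lists were chosen with earlier results of these data known. Of 166 list entries 162 matched. The naming rule covered all members, the other mitochondrially encoded genes where a result turns on them, up to 4 called genes of each list by adjusted p, and the 5 protein-coding genes most correlated with the members' mean. Lrpprc, Grsf1, Polrmt, Nrf1 and Atp5e fall outside that rule and were named after their values were seen. Alternatives were the pseudocount (0.1), the filter (none, or 5 FPKM), no trend, only 2 groups fitted, a replicate block, median-ratio scaling, a denominator without mitochondrially encoded genes, and each library left out. Leaving out sham replicate 1 and day 1 replicate 2 together, and each library for the ratios, were added after seeing the data.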

Additional observations from a re-analysis of the deposited data

Results flagged for a closer look

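The ratio of mt-Atp6 to mt-Nd5 was below sham in every day 1 library and above sham in every day 7 library. The difference between its mean at day 7 and at day 1 was 0.496 percentage points, with 1.081% ± 0.0986 at day 7 and 0.585% ± 0.110 at day 1 (SD, n = 3 each), and 0.781% ± 0.0963 in sham (SD, n = 3). The opposite directions at the 2 times drew attention to it, and the difference between them was not tested. mt-Nd3, which was not one of the 10 genes, had 624, 1119 and 1123 FPKM at day 7, 538, 552 and 1051 FPKM at day 1 and 1119.7, 1129.97 and 1215 FPKM in sham. Both mt-Atp6 and mt-Nd3 share nearly all of their sequence with nuclear copies.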

How the results depend on the processing

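Depth is unknown, and 3 libraries a group limit all calls. Of 1020 fold changes of the members under the alternatives, 971 kept direction and side of the threshold, 13 passed it and 36 reversed. The number of members called at day 7 on FPKM was 1 with a mean of at least 5 FPKM, without trend, or with only 2 groups fitted. With libraries left out, it ran between 0 and 2 at day 1 and at day 7 on FPKM, and between 0 and 1 on shares in each comparison. On FPKM the fold change of mt-Nd6 at day 1 ran between -0.071 and 0.12 (0.007 after median-ratio scaling) and of mt-Atp6 at day 7 between -0.208 and 0.168. Between day 7 and day 1 on FPKM, with libraries left out, that of mt-Nd1 ran between -0.64 and 0.051, mt-Nd2 between -0.555 and 0.063, mt-Nd4 between -0.362 and 0.065, mt-Nd5 between -0.473 and 0.034, mt-Cytb between -0.41 and 0.104, mt-Co1 between -0.206 and 0.189, and mt-Co3 between -0.913 and 0.165. On shares at day 1, mt-Nd5 ran between -0.044 and 0.036 and mt-Cytb between -0.092 and 0.037. On shares at day 7 against sham, mt-Nd6 ran between -0.127 and 0.183, mt-Cytb between -0.285 and 0.039, and mt-Co2 between -0.162 and 0.17; without mitochondrially encoded genes in the denominator, mt-Nd6 was -0.108 and mt-Co2 -0.082. On shares between day 7 and day 1, mt-Nd1 ran between -0.484 and 0.017, mt-Nd2 between -0.399 and 0.029, mt-Nd4 between -0.206 and 0.031, mt-Cytb between -0.254 and 0.07, mt-Co1 between -0.05 and 0.155, and mt-Co3 between -0.862 and 0.174, with mt-Co1 at -0.039 on that other denominator. The summed share differed from sham by -1.714 percentage points at day 1 and -2.684 at day 7, and on that denominator by -3.704 and -6.159. With libraries left out it ran between -2.299 and -1.306 at day 1, between -4.228 and -0.954 at day 7, and between -2.514 and 0.76 for day 7 against day 1, above 0 without day 7 replicate 1. The cause of these shifts was not tested. What the replicate numbers stand for is not known. Deviations from the group means had r between -0.37 and 0.269 in same-numbered pairs of libraries. In other pairs r lay between -0.53 and 0.403. With 3 libraries a group, these values cannot show whether same-numbered libraries shared a batch. With the replicate number as a block, 0 members were called in any comparison. Among all genes at day 1 it gave 1448 higher and 1590 lower on FPKM, against 1817 and 1993 without it, and for day 7 against day 1 it gave 144 and 93, against 366 and 289. Of the 42 nuclear subunits, 16 fell at day 1 and 18 at day 7 under the block, which called 1893 of all genes lower at day 7. Without a filter on low values 11 of them fell at each time, beside 1726 of 21763 genes at day 1 and 2019 at day 7. With libraries left out, 0 to 42 of them fell at day 1 and 1 to 29 at day 7. Lower calls among all genes then ran between 146 and 2299 at day 1 and between 1042 and 2618 at day 7.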
